A study of Mus musculus with 2 samples.

Results

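Pyruvate stands where glycolysis meets the mitochondrion, and this account follows 10 genes that make it or decide where it goes. They were chosen by name from the deposited values, as the pyruvate kinases, the lactate dehydrogenases, the mitochondrial pyruvate carrier, pyruvate dehydrogenase with its kinases, and pyruvate carboxylase. All 10 were listed in both libraries, out of 22350 gene symbols in all, and each rested on a single entry. The libraries held messenger RNA of colon epithelial cells from C57BL/6 mice, 1 library from a wild type preparation and 1 from a Pkm2-/- preparation. DSS (dextran sulfate sodium), which damages the epithelium of the colon, had been given at 2.5% for 3 days in both cases, so no untreated colon enters the comparison. How many animals made up a library, their age and sex, how the Pkm2-/- allele was built and in which cells it acts are not stated in the labels.

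Pyruvate kinase catalyses the last step of glycolysis, in which phosphoenolpyruvate hands its phosphate to ADP and becomes pyruvate. Lactate dehydrogenase then reduces pyruvate to lactate and regenerates NAD+, whereas the carrier made of Mpc1 and Mpc2 brings pyruvate into mitochondria. There pyruvate dehydrogenase turns it into acetyl-CoA unless its kinases have switched the enzyme off by phosphorylation, and pyruvate carboxylase turns it into oxaloacetate. Colonocytes are known for burning butyrate from bacterial fermentation as a main fuel, so pyruvate is not their only source of acetyl-CoA.

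The targeted gene, Pkm (ENSMUSG00000032294, chr9:59656368-59679375 on GRCm38, plus strand), yields both the Pkm1 and the Pkm2 messenger RNA through a pair of mutually exclusive exons. In the annotation the full-length transcripts Pkm-202 and Pkm-201 each have 11 exons, and they differ inside the coding region in 1 exon of 167 bases. The Pkm1 exon lies at chr9:59675029-59675195 and the Pkm2 exon at chr9:59675568-59675734, 372 bases further on. They are shown because the knockout is named after the isoform that the second of them defines. Both are written 5′ to 3′ from the GENCODE transcripts, and capitals mark the 64 positions at which they differ.
Pkm1 exon: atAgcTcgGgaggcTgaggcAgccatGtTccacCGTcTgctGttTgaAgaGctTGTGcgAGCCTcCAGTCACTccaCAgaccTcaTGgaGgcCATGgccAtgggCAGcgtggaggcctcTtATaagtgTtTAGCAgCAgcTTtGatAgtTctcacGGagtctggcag
Pkm2 exon: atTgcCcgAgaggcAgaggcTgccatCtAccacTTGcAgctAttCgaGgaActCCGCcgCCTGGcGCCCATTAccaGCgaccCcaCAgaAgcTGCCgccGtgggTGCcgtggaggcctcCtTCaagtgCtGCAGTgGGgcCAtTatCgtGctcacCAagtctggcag
The exons share 103 of 167 bases (61.7%), and the Pkm2 exon makes up 6.87% of the 2432 bases of Pkm-201. The deposited value is 1 number per gene, so it sums transcripts with either exon, and it does not check the loss of Pkm2 by itself.

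Values are FPKM, in which a gene's fragments are divided by its length and by the size of the library, so the levels of different genes can be compared per length within a library. From the spacing of the lowest values the libraries held about 18800000 fragments for wild type and 21400000 for Pkm2-/- cells. The 95% counting intervals given with folds were made from the fragments implied by that depth. They are approximate and cover counting error alone. With 1 library per genotype there is no replicate check, no test and no p-value, and every difference describes these 2 libraries. In bulk RNA, fewer cells of a type and less RNA per cell cannot be told apart. The log2 ratio is that of knockout over wild type after adding 1 FPKM to each value, and genes were counted by its size among the 12429 genes whose mean reached 1 FPKM, as that of all 10 members did. Across those genes its median was 0.06.

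Epithelial markers dominated both libraries. The 12 listed epithelial genes summed to 11348 and 10728 FPKM, wild type first as in every pair of values here. The most abundant, Car1, was lower at 4369 and 2701 FPKM. Of the 12, 10 had ratios above 0 (58.8% of all genes), Epcam among them at 584 and 712 FPKM. Markers of other cells were low but uneven. The 10 T and cytotoxic lymphocyte genes summed to 24.4 and 99.2 FPKM, with all 10 higher in the knockout (58.8% of all genes). Of these, Cd8b1 rested on about 1 fragment in the wild type. The 8 B and plasma cell genes summed to about 10 and 34.6 FPKM. The 5 listed erythrocyte genes summed to 24.5 and 1.91 FPKM, and Slc4a1 was not listed. The 9 listed macrophage and neutrophil genes summed to 34.1 and 36.9 FPKM, mostly Cd14, and S100a8 and S100a9 were not listed. Fibroblast genes summed to 5.51 and 2.68 FPKM, muscle genes to 6.99 and 6.60, endothelial genes to 1.61 and 0.835, and neuronal and glial genes to 2.90 and 2.12. The 6 enteroendocrine genes summed to 311 and 192 FPKM.

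The pyruvate genes spanned more than 2 orders of magnitude in either library. Ldha was the most abundant member in both, while Ldhb and Pdk4 were the least abundant. Of the 10 members, 2 were at least 2-fold lower in the knockout library, where 1.90% of all genes were. They were Pkm, the gene that the knockout targets, and Pdk4. The same 2 members, and no more, were at least 1.5-fold lower (5.29% of all genes). None was at least 2-fold higher (1.42% of all genes) or at least 1.5-fold higher (4.46%). Ratios lay below 0 for 7 members (41.2% of all genes) and above 0 for 3 (58.8%), and the median of the members was -0.22. The counts of lower members and the median include Pkm, so they cannot be read apart from its targeting. The plot of member levels shows both libraries side by side, and the plot of ratios against level places the members among all genes.

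**Figure D1:**
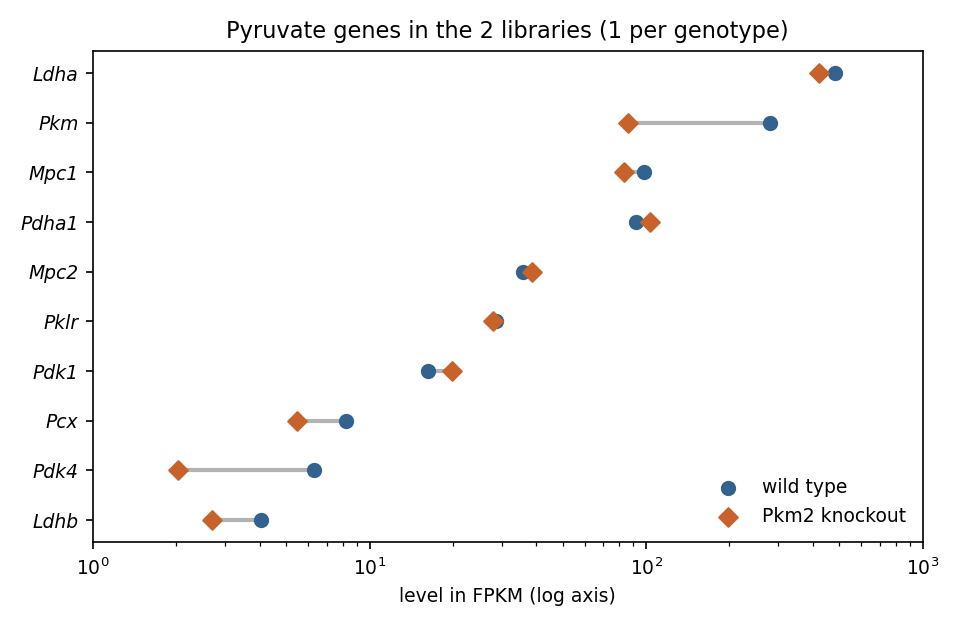
Level of each of the 10 pyruvate genes in FPKM (horizontal log axis), with circles for the wild type library and diamonds for the Pkm2 knockout library, 1 library each. Pkm (281 and 86.2 FPKM) and Pdk4 (6.29 and 2.03 FPKM) have the widest gaps, and the symbols of Pklr nearly coincide.

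**Figure D2:**
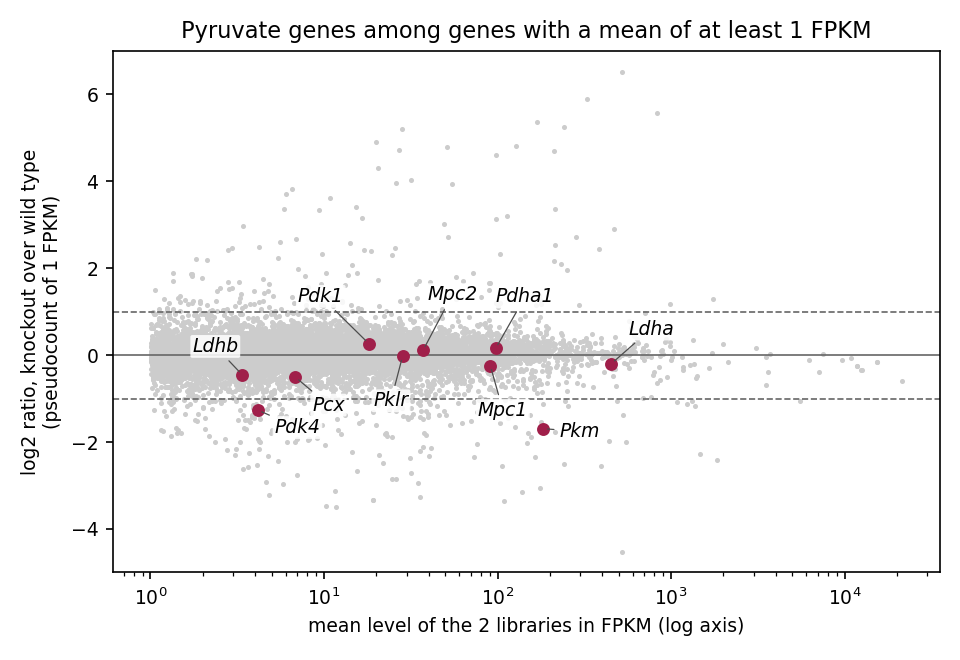
Log2 ratio of knockout over wild type (vertical axis, pseudocount of 1 FPKM) against the mean level in FPKM (horizontal log axis) for 12429 genes in grey, with the 10 pyruvate genes in red and dashed lines at 2-fold. Pkm at -1.69 and Pdk4 at -1.27 lie below the lower dashed line, and the other members lie between the lines.

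Pkm, which encodes the pyruvate kinase of most tissues, measured 281 FPKM in wild type cells against 86.2 FPKM in Pkm2-/- cells. That difference was 3.26-fold (95% counting interval 3.15 to 3.37), a log2 ratio of -1.69. That is the 85th lowest of 12429 ratios, so 0.684% of genes lay at or below it. In order of level Pkm went from rank 204 in the wild type to rank 807 in the knockout library, and it still exceeded all but 6.49% of genes there. The pseudogenes Gm6560 and Gm6992 have up to 58.4% of their 31-base words in Pkm transcripts. Gm6560 was listed at 0.0287 and 0.106 FPKM. Gm6992 was listed in neither library, so how its reads were assigned is uncertain. The part of such reads in the Pkm value was not tested.

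Pklr (ENSMUSG00000041237, chr3:89136142-89146784, plus strand), the pyruvate kinase of liver and red cells, measured 28.6 FPKM in wild type and 28.0 FPKM in Pkm2-/- cells. The counting interval of its ratio, 0.914 to 1.05, included 1. Per length, Pkm transcripts were 9.81 times as abundant as Pklr transcripts in wild type and 3.07 times as abundant in Pkm2-/- cells. Pklr made up 9.25% of the summed pyruvate kinase level in wild type and 24.6% in Pkm2-/- cells, while the sum itself was 309 and 114 FPKM, 2.71-fold lower. Erythrocyte markers were much lower in the knockout preparation, for example Hbb-bs at 8.99 and 0.311 FPKM, and their part in the Pklr value was not tested. Exons of Pklr overlap those of Hcn3 on the opposite strand, which was at 2.58 FPKM in both libraries. Whether the counting used strand is not stated, so reads from overlapping genes on opposite strands cannot be told apart.

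The annotation's neighbours of Pkm on chromosome 9 differed little beside it. Of the 5 genes on each side that passed the same filter, 9 lay within 1.5-fold by the plain ratio. Most genes did so by that ratio, since 7.58% of all genes were at least 1.5-fold lower and 6.59% higher. The nearest were Parp6, an ADP-ribosyltransferase gene, at 12 and 10.1 FPKM, and Gramd2 at 2.97 and 2.55 FPKM. Arih1, a ubiquitin ligase gene, was 1.26-fold higher (95% counting interval 1.20 to 1.33). Thsd4, a gene of the extracellular matrix, was the exception at 4.50 and 1.70 FPKM, 2.65-fold lower (95% counting interval 2.32 to 3.03). Its lower end lies 311 kb from that of Pkm. The plot of the chromosome neighbours shows Pkm and Thsd4 apart from the others.

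**Figure D3:**
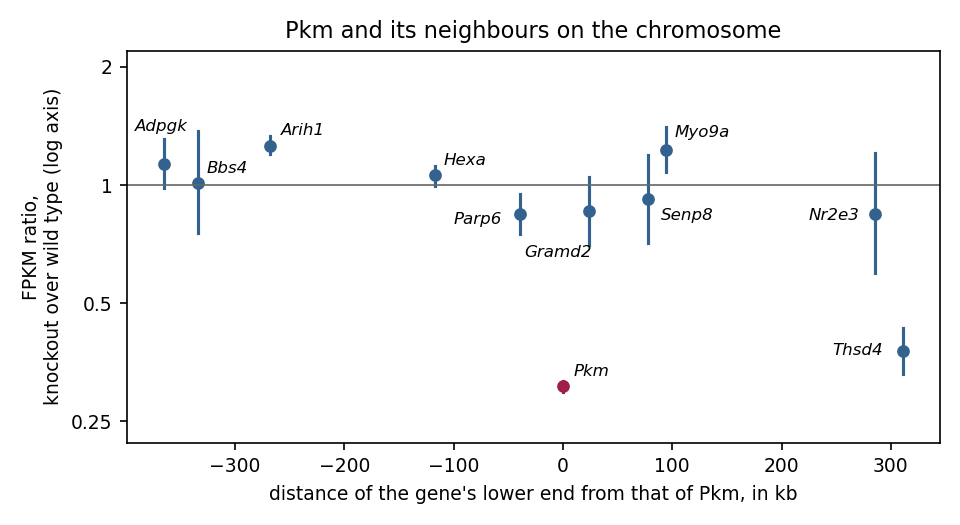
Ratio of knockout over wild type FPKM (vertical log axis, bars for the 95% counting interval) against the distance in kb between the lower ends of each gene and of Pkm (horizontal axis), for Pkm in red and the 5 expressed genes on each side in blue. Pkm (0.307) and Thsd4 (0.377) lie low, and the remaining 9 genes lie between 0.843 and 1.26.

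Over only 2 libraries, the genes closest to Pkm in level and ratio, by distance of log2(FPKM + 1), were Irf7 (266 and 91.5 FPKM, distance 0.12), Isg15 (333 and 97.1 FPKM, distance 0.30) and Abcb1a (222 and 84.3 FPKM, distance 0.34). Irf7 is a transcription factor of the interferon response, Isg15 an interferon-induced ubiquitin-like protein and Abcb1a a drug efflux pump. Those closest to Pdk4 were Plscr2 (6.49 and 1.90 FPKM, distance 0.076), Fbxo32 (5.97 and 2.19 FPKM, distance 0.097) and Cidec (5.83 and 1.94 FPKM, distance 0.10). Fbxo32 encodes a ubiquitin ligase known from muscle wasting and Cidec a lipid droplet protein.

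Genes that supply phosphoenolpyruvate to pyruvate kinase did not share a direction. Of 5 that passed the filter, 2 had ratios above 0 (58.8% of all genes), or 1 with equal library medians or upper quartiles. Their median was -0.19. Pgam1, a phosphoglycerate mutase, was at 76.0 and 104 FPKM, 1.36-fold higher in the knockout (95% counting interval 1.3 to 1.44). The abundant enolase Eno1 was at 241 and 249 FPKM, and the muscle-type enolase Eno3 at 15.9 and 12.9 FPKM. Pck1, which makes phosphoenolpyruvate from oxaloacetate, was at 58.8 and 47.9 FPKM. Because Pkm was so much lower, Pck1 relative to the summed pyruvate kinases went from 0.190 to 0.419.

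Ldha (ENSMUSG00000063229, chr7:46841475-46855627, plus strand), the lactate dehydrogenase subunit favoured in glycolytic tissue, measured 484 FPKM in wild type and 421 FPKM in Pkm2-/- cells. It was 1.15-fold lower in the latter (95% counting interval 1.12 to 1.17), and 19.8% of all genes had a ratio as low or lower. Ldhb (ENSMUSG00000030246, chr6:142490249-142507957, minus strand), the subunit typical of heart, was scarce at 4.06 and 2.69 FPKM. It was 1.51-fold lower by the plain ratio, but its interval of 1.11 to 2.06 was wide because it rested on about 99 and 75 fragments. With the pseudocount its log2 ratio was -0.45. By the plain ratio 4 members were at least 1.5-fold lower, the targeted Pkm, Pdk4, Ldhb and Pcx (7.58% of all genes were). None was at least 1.5-fold higher (6.59%). Ldha therefore made up 99.2% of the summed level of both subunits in wild type and 99.4% in Pkm2-/- cells. Relative to the summed pyruvate kinases, Ldha went from 1.56 to 3.69, mostly through the lower Pkm value.

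Of the other lactate dehydrogenase genes, Ldhd, which oxidises D-lactate in mitochondria, was at 3.91 and 3.14 FPKM. Ldhal6b was at 0.241 and 0.188 FPKM and Ldhc, the testis gene, was not listed. Lactate and pyruvate cross the cell membrane through monocarboxylate carriers. Of 6 measured genes of this transport, 4 had ratios above 0 (58.8% of all genes), or 3 with equal library medians or upper quartiles. Their median was 0.10. Slc16a1, the main carrier of colonocytes, was at 41.4 and 46.4 FPKM, its chaperone Bsg at 371 and 328, and the sodium-coupled carrier Slc5a8 at 45.3 and 52.5. Slc16a7, a high-affinity pyruvate carrier, was 1.85-fold lower at 2.37 and 1.28 FPKM (95% counting interval 1.60 to 2.14). The other chaperone, Emb, was 1.89-fold higher at 0.905 and 1.71 FPKM (95% counting interval 1.33 to 2.68). T and cytotoxic lymphocyte markers were higher in the same library, all 10 of 10 (58.8% of all genes), with Ptprc at 5.94 and 16.1 FPKM. Their part in the Emb value was not tested.

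The subunits of the mitochondrial pyruvate carrier differed by small amounts. Mpc1 (ENSMUSG00000023861, chr17:8282904-8297661, plus strand) was at 98.4 FPKM in wild type and 83.1 FPKM in Pkm2-/- cells, 1.18-fold lower (95% counting interval 1.11 to 1.27). Mpc2 (ENSMUSG00000026568, chr1:165460637-165481214, plus strand) was at 35.8 and 38.7 FPKM, and the interval of its ratio, 0.978 to 1.20, included 1. The carrier is an assembly of both subunits, and Mpc1 over Mpc2 went from 2.75 to 2.15. The pseudogenes Mpc1-ps and Gm8219 share up to 89.7% of their 31-base words with Mpc1. They were listed in neither library, so how their reads were assigned is uncertain. An antisense entry, 4930506C21Rik, overlaps exons of Mpc1.

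All 5 core subunits of the pyruvate dehydrogenase complex had higher values in the knockout library (58.8% of all genes), also with equal library medians or upper quartiles. This subset was picked by role after its values were seen. Pdha1 (ENSMUSG00000031299, chrX:160122209-160138413, minus strand), the subunit that the kinases phosphorylate, was at 92.3 FPKM in wild type and 103 FPKM in Pkm2-/- cells. Its ratio of 1.11 had a counting interval from 1.07 to 1.16, and 36.0% of all genes had a ratio as high or higher. An exon of Map3k15 on the opposite strand overlaps it. The partner of Pdha1, Pdhb, was at 60.6 and 69.6 FPKM. The acetyltransferase core gene Dlat was at 21.2 and 29.5 FPKM, 1.39-fold higher (95% counting interval 1.31 to 1.48). The binding protein gene Pdhx was at 9.15 and 12.9 FPKM, 1.41-fold higher (95% counting interval 1.25 to 1.60). None of the 5 reached 1.5-fold, and their log2 ratios ran from 0.16 to 0.46.

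The enzymes that make the lipoyl groups of the complex did not share this. Lias, the lipoyl synthase, was at 11.9 and 12.7 FPKM, and Lipt2 at 8.64 and 8.06. Lipt1, a lipoyltransferase, was 1.69-fold lower at 3.03 and 1.80 FPKM (95% counting interval 1.20 to 2.43). Over the 8 measured genes of the complex and its lipoylation, 6 had ratios above 0 (58.8% of all genes) and the median was 0.18.

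Pdk4 (ENSMUSG00000019577, chr6:5483351-5496309, minus strand), the kinase known to rise in fasting and to hold pyruvate dehydrogenase inactive, measured 6.29 FPKM in wild type and 2.03 FPKM in Pkm2-/- cells. It was 3.10-fold lower (95% counting interval 2.56 to 3.74), on about 411 and 152 fragments. Only 1.22% of genes had a log2 ratio at or below its -1.27. Pdk1 (ENSMUSG00000006494, chr2:71873224-71903858, plus strand), the kinase known as a target of hypoxia-inducible factor, was at 16.3 and 19.8 FPKM. It was 1.21-fold higher (95% counting interval 1.14 to 1.3), and 21.9% of all genes had a ratio as high or higher.

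The other kinases split in the same way. Pdk2 was 1.43-fold lower at 13.5 and 9.42 FPKM (95% counting interval 1.27 to 1.63), and Pdk3 was 1.28-fold higher at 12.6 and 16.2 FPKM (95% counting interval 1.14 to 1.43). The summed level of the 4 kinases was nearly equal, 48.8 and 47.4 FPKM, while its makeup differed. Pdk4 made up 12.9% of the sum in wild type and 4.28% in Pkm2-/- cells, and Pdk2 made up 27.7% and 19.9%. Pdk1 went from 33.5% to 41.8% and Pdk3 from 25.9% to 34.1%. Pdk1 over Pdk4 was 2.60 in wild type and 9.77 in Pkm2-/- cells. The summed kinases relative to Pdha1 were 0.528 and 0.461. Against the kinases work the phosphatases, of which Pdp1 was 1.63-fold lower at 5.87 and 3.60 FPKM (95% counting interval 1.41 to 1.89) and Pdp2 was at 3.04 and 2.93. The phosphatase regulator Pdpr was at 9.61 and 9.89 FPKM. The plot of stacked levels shows these sums.

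**Figure D4:**
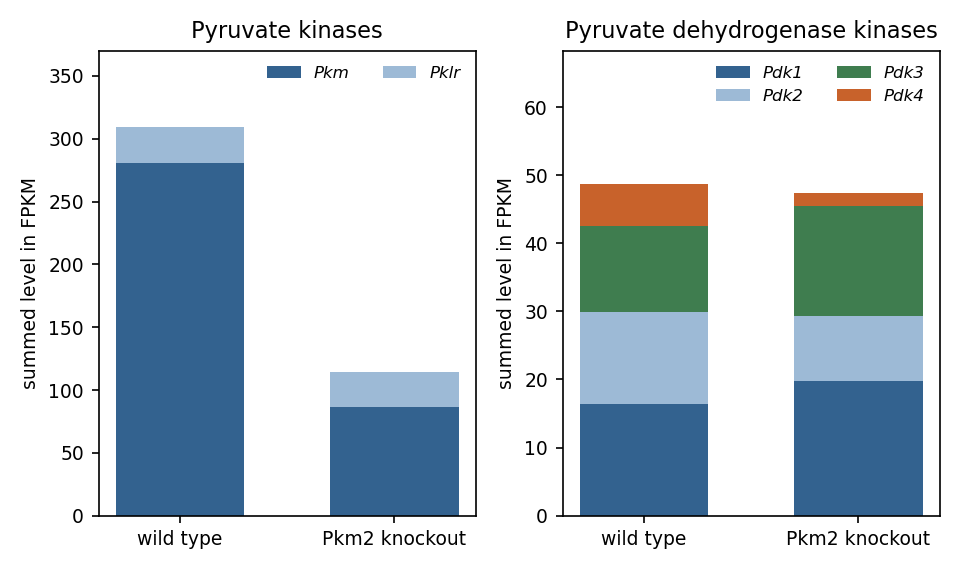
Summed level in FPKM (vertical axes from 0) of the pyruvate kinase genes on the left and of the pyruvate dehydrogenase kinase genes on the right, stacked by gene, for 1 wild type and 1 Pkm2 knockout library. The left sum goes from 309 to 114 FPKM through Pkm, and the right sum stays near 48 FPKM with less Pdk4 and Pdk2 and more Pdk1 and Pdk3.

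Pcx (ENSMUSG00000024892, chr19:4510472-4621752, plus strand), which replenishes the tricarboxylic acid cycle with oxaloacetate, was at 8.22 FPKM in wild type and 5.48 FPKM in Pkm2-/- cells. The plain ratio was 0.666 (95% counting interval 0.591 to 0.751), with a log2 ratio of -0.51 that 6.57% of genes matched or fell below. Pcx relative to Pdha1, the other entry of pyruvate into mitochondrial metabolism, went from 0.0891 to 0.0532. Genes listed for other reactions that use or make pyruvate were mostly lower too. Among 8 measured genes of that list, Pcx included, 7 had ratios below 0 (41.2% of all genes). At least 1.5-fold lower were 2 (5.29% of all genes), or 1 with a pseudocount of 5, and the median was -0.47.

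The lowest of these was Gpt, which exchanges pyruvate and alanine, at 38.9 and 21.9 FPKM, 1.78-fold lower (95% counting interval 1.63 to 1.95). Its mitochondrial counterpart Gpt2 was at 5.68 and 4.95 FPKM. Tha1, a threonine aldolase, was at 8.11 and 4.97 FPKM and was the other gene counted as at least 1.5-fold lower. Its own reaction does not involve pyruvate, so the counts of this list include a gene outside its heading. Mpst, which makes pyruvate from mercaptopyruvate, was at 86.3 and 63.8 FPKM. The malic enzymes release pyruvate from malate, and they differed among themselves. Me2 was at 46.3 and 56.3 FPKM, Me1 at 8.73 and 7.33, and Me3 at 2.43 and 1.38. The plot of ratios by role sets these genes beside the complex and its regulators.

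**Figure D5:**
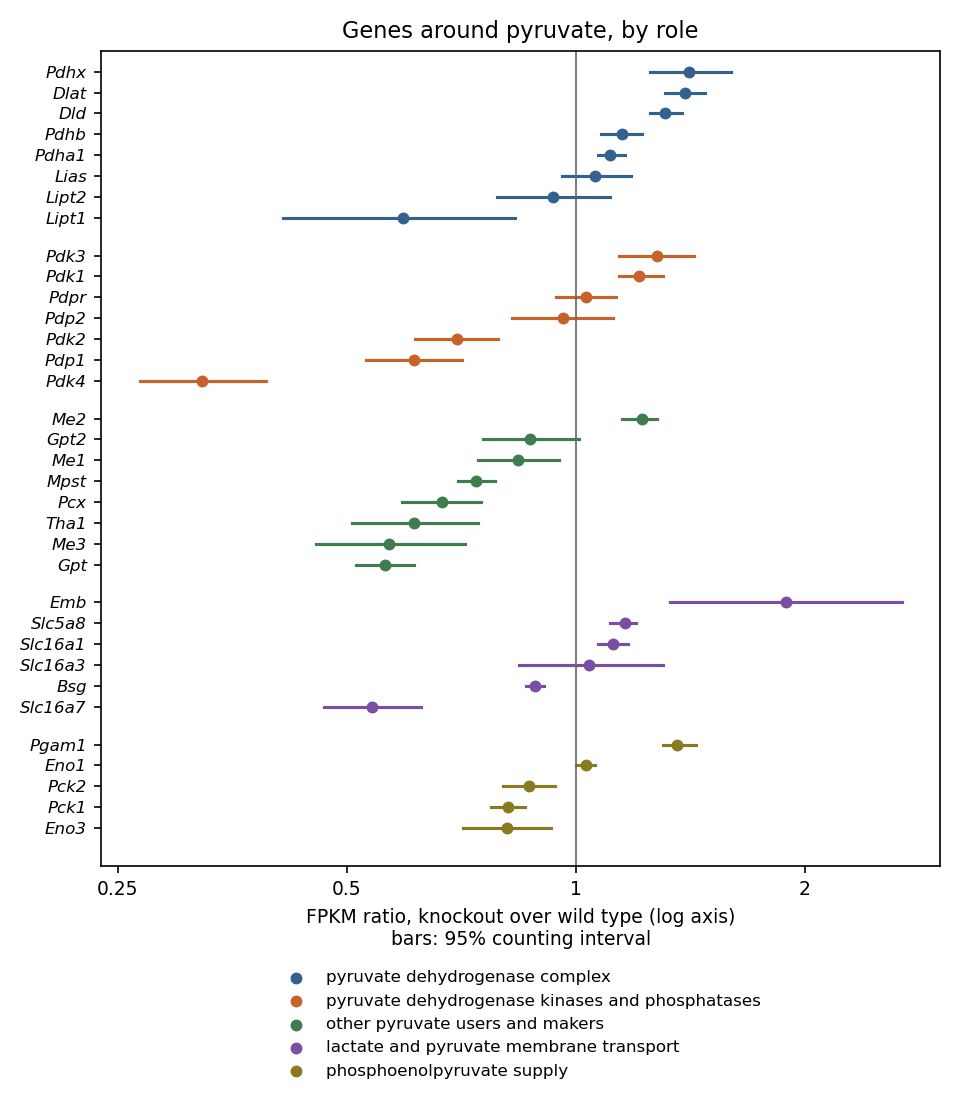
Ratio of knockout over wild type FPKM (horizontal log axis, points) with its 95% counting interval (bars) for the genes of 5 roles that passed the filter, coloured by role, with the pyruvate kinases not drawn. The core subunits from Pdha1 (1.11) to Pdhx (1.41) lie to the right of 1, and Pdk4 (0.323) lies farthest left of the genes drawn. Of the 8 genes listed as other pyruvate users and makers, 7 lie left of 1, among them Tha1, whose reaction does not involve pyruvate.

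Downstream of pyruvate dehydrogenase, genes that use or make acetyl-CoA went both ways, with a median of -0.05 and a mean of 0.04 over 7 genes. Of these, 3 were above 0 (58.8% of all genes), or 2 with equal library medians. The ATP citrate lyase Acly was 1.34-fold higher at 70.1 and 93.8 FPKM (95% counting interval 1.29 to 1.38), and the citrate synthase Cs 1.22-fold higher at 142 and 173 (95% counting interval 1.18 to 1.26). The acetate-activating genes Acss1 (25.9 and 21.8 FPKM) and Acss2 (42.0 and 37.8 FPKM) were at the low end.

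Ldha, Pdk1 and Pkm are textbook targets of hypoxia-inducible factor (HIF), and Pdk4 of the fatty acid receptors (PPAR) and of fasting signals, so other targets were set beside them. Of 17 other HIF targets, 13 had ratios below 0 (41.2% of all genes), or 16 with equal library medians and 15 with equal upper quartiles. At least 1.5-fold lower were 6 (5.29% of all genes), and the median was -0.34. The lowest were Ankrd37 at 11.7 and 2.31 FPKM and the phosphofructokinase-2 gene Pfkfb4 at 14.5 and 5.36. They also included the growth factor gene Vegfa (36.3 and 18.0 FPKM), Bnip3 (5.19 and 2.42 FPKM), Higd1a (49.8 and 30.0 FPKM) and the oxygen sensor Egln3 (7.73 and 4.60 FPKM). Targets linked to glycolysis did not move together. Pgk1 (184 and 196 FPKM) and Aldoa (567 and 577 FPKM) had ratios near 1, as Ldha was within 1.15-fold. Lower, besides Pfkfb4, were Slc2a1 and Pfkfb3. Slc2a1 was 1.36-fold lower at 34.3 and 25.2 FPKM (counting interval 1.28 to 1.45). Pfkfb3 was 1.45-fold lower at 2.07 and 1.43 FPKM (counting interval 1.16 to 1.81). P4ha1 was at 5.20 and 5.44 FPKM. The log2 ratio of Pdk1, 0.27, was above all 17, and that of Pkm, -1.69, was below all but Ankrd37. Pkm is the targeted gene, so its place among these targets cannot be read as a HIF response.

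Of 18 other genes of the PPAR and fasting list, 13 had ratios below 0 (41.2% of all genes). At least 1.5-fold lower were 3 (5.29% of all genes), and the median was -0.16. Angptl4, a lipase inhibitor, was at 1.89 and 0.194 FPKM. The mitochondrial carnitine carrier Slc25a20 was 1.88-fold lower at 77.1 and 41.1 FPKM. At the high end were Acot1 (3.35 and 4.23 FPKM) and Fabp2 (140 and 162 FPKM).

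Of the 16 transcription factors listed for these genes, 10 had ratios above 0 (58.8% of all genes), or between 7 and 9 under other scalings of the libraries. At least 1.5-fold higher were 2 (4.46% of all genes), or 1 with equal library medians or upper quartiles and 0 with a pseudocount of 5. Myc was 1.64-fold higher at 13.0 and 21.3 FPKM (95% counting interval 1.48 to 1.82), and the coactivator Ppargc1b 1.61-fold higher at 8.31 and 13.4 (95% counting interval 1.45 to 1.78). Its relative Ppargc1a was at 12.1 and 9.07 FPKM and Foxo3, a factor of fasting responses, at 13.2 and 9.19. Hif1a was at 19.3 and 24.4 FPKM, and Ppara at 7.34 and 7.62. Of 8 factors that act on the choice between the Pkm1 and Pkm2 exons, 7 had ratios above 0 (58.8% of all genes), with a median of 0.22. Ptbp1, which represses the Pkm1 exon, was at 142 and 164 FPKM, Ptbp3 at 47.0 and 66.5, and its neuronal relative Ptbp2 at 8.43 and 7.69. The kinase gene Nek2, also a mitosis gene, was 1.75-fold higher at 6.79 and 11.9 FPKM (95% counting interval 1.56 to 1.98), though none of the 8 reached 1.5-fold with a pseudocount of 5, and Rbm4 was at 14.8 and 16.6.

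Because HIF targets and Myc were set beside these genes, the promoters were searched for the letters ACGTG, the core of the HIF element. They were also searched for CACGTG, the E-box that Myc and the carbohydrate factor Mlxipl can use. Every E-box contains ACGTG on both strands. The RefSeq table (GRCm38.p6) matched all 10 members with 16 start sites, and the 250 bases before each start were read on both strands. ACGTG was found in 3 of 16 member promoters (18.8%) and in 16.6% of all 32851 promoters of that length, and CACGTG in 2 (12.5%) and in 6.02%. The 3 were the first start sites of Ldha and Pcx and the second of Pkm. GGGCGG, the GC box, was in 7 of 16 member promoters (43.8%) and in 32.7% of all. These runs of letters are rich in G and C. All member windows were above the 52.4% median GC of all promoters, except the first of Pklr (50.0%) and the second of Pdk1 (38.4%). The part of base content in these shares was not tested.

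The promoters with E-boxes and that of the first listed start site of Pkm are shown. They are written as read 5′ to 3′ along the gene, with ACGTG on either strand in capitals. Ldha is chr7:46845554-46845803 (plus strand), Pcx is chr19:4510222-4510471 (plus strand) and Pkm is chr9:59656326-59656575 (plus strand).
Ldha promoter: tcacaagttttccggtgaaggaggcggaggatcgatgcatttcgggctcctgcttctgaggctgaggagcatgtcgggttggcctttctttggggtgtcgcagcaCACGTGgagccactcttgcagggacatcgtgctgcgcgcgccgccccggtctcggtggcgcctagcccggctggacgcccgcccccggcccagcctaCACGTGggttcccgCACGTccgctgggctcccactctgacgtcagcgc
Pcx promoter: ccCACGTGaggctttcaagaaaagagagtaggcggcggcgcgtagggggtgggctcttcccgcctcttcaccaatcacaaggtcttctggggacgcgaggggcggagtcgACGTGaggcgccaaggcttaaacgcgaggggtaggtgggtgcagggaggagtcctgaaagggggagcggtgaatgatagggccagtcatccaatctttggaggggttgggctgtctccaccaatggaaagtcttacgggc
Pkm promoter: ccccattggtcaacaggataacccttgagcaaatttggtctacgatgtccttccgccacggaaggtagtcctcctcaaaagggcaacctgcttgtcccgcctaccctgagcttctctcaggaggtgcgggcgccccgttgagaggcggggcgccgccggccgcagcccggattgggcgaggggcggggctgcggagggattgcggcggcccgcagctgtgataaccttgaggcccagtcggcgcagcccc
The Ldha window held 5 matches of ACGTG counted over both strands, 4 of them from its 2 E-boxes. The Pcx window held 3 matches, 2 of them from 1 E-box. The Pkm window shown held none, while that of its second start site, not shown, held 1. The second windows of Ldha and Pcx, also not shown, held 0. Ldha, Pcx and Pkm had log2 ratios of -0.20, -0.51 and -1.69, and a link of these to the matches was not tested. A match is a run of letters and not a bound site, and the windows cover only 250 bases.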

How the data were processed

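Messenger RNA of 1 wild type and 1 Pkm2-/- library was compared. The authors deposited 1 FPKM value per Ensembl gene. The unit was read from the values, since no header names it, and from the submitters' processing notes, which list Bowtie2 2.2.9, TopHat2 2.1.1, Cufflinks 2.2.1, Cuffdiff 1.3.0 and 2.2.1 and build mm8. Of 22384 gene IDs, 99.4% were in GENCODE M21 and 99.96% of those had loci overlapping the gene on GRCm38, which is the build of all coordinates here. Only values above 0 are listed, and Txnrd1 and mt-Co1, genes of nearly every cell, are not, so an unlisted gene need not be silent. Genes of the mitochondrial genome and 7 nuclear copies made up 30% and 26.1% of the FPKM sums.

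Rows sharing a symbol were summed (Python 3.11.15, pandas 2.3.3, scipy 1.17.1). Depth came from the lowest FPKM times kb in genes with 1 transcript longer than 1.5 kb, which clustered at 0.0533 and 0.0467 (189 and 184 genes). Clopper-Pearson 95% intervals used fragments implied by that step and the longest coding transcript. Both steps were tested on simulated counts with counting error alone and the same transcript lengths. Error in transcript length or read assignment was not covered. Named were all members, the 2 highest and 2 lowest of each of 11 lists, any list gene at least 1.5-fold apart, 10 neighbours of Pkm and the 3 genes closest to Pkm and Pdk4. Others are named for their role. Members and lists were chosen with earlier results of these data known. Alternatives were other pseudocounts, filters and scalings. Some list and marker genes that these rules would name are not reported here.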

Additional observations from a re-analysis of the deposited data

How the results depend on the processing

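Under 5 alternative pseudocounts and scalings, all 50 recomputed log2 ratios of the members stayed on their side of 0, and 42 moved by less than the counting interval. With a pseudocount of 0.1 the ratio of Pdk4 was -1.58, and with a pseudocount of 5 it was -0.68, so that 1 member, Pkm, remained at least 2-fold lower. With equal library medians Pkm was at -1.78, Ldha at -0.28 and Pdha1 at 0.07, and with equal upper quartiles they were at -1.76, -0.26 and 0.09. A filter at a mean of 5 FPKM left 8 members, without Pdk4 and Ldhb, of which 1 was at least 2-fold and 1 at least 1.5-fold lower, with a median of -0.11. The same filter put the kinases and phosphatases at a median of 0.15. A pseudocount of 5 put the HIF targets at -0.14, the other pyruvate users and makers at -0.28 and Ldhd, alone in its list, at -0.13, and a pseudocount of 0.1 put the HIF targets at -0.45. The ratios between isozymes did not change when the highest row of a symbol replaced the sum, since each member has 1 row.

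Over all genes, 361 were at least 2-fold lower and 272 higher with a pseudocount of 0.1, 124 and 85 with a pseudocount of 5, and 154 and 111 with that filter, against 236 and 176 as reported. At 1.5-fold there were 329 lower and 220 higher with a pseudocount of 5, and 399 and 345 with that filter, against 658 and 554. Equal library medians moved the median of all genes from 0.06 to -0.01 and made the 1.5-fold split 800 lower and 418 higher. Small ratios such as those of Pdha1 and Mpc2 are of the size of these shifts. Depth limits Ldhb, Lipt1, Emb and Angptl4, which rest on few fragments. No paired analysis was possible because each genotype has 1 library.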
